A study of Homo sapiens with 6 samples.

Results

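Ribosome biogenesis factors are the proteins that make ribosomal RNA, modify it and fold it with ribosomal proteins into the 2 subunits of the ribosome. A set of 53 human genes was followed here, chosen by gene symbol: nucleolar assembly factors, proteins of small nucleolar ribonucleoproteins (snoRNPs), and subunits of RNA polymerase I. They were read on Illumina bead arrays from 6 samples of SK-Hep1 cells, an established line from a human liver adenocarcinoma. In 3 samples the cells had been transfected with siRNA against YAP1 and TAZ (knockdown), and in 3 with a control siRNA labelled siLuc (control). All samples come from 1 cell line with no other treatment named, and the knockdown was transient and read on day 3. The labels do not say whether replicates were separate cultures, so the p-values given here reflect differences among these samples alone, and that variation could be technical.

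Of the 20046 genes named on the array, 49 of the 53 factors had at least 1 probe, with 74 probes in all. No probe was named here for WDR43, GNL3, EBNA1BP2 and DDX18. A probe was called detected on an array when it stood above that array's background at a p of 0.05, and a probe was tested if it was detected on 3 or more arrays. This left 67 probes for 47 factors, beside 9718 measured genes in all, and the brightest tested probe stood for its gene. The single probes of POLR1A, the largest subunit of RNA polymerase I, and NPM1, an abundant nucleolar chaperone, were detected on none of the 6 arrays. NPM1 read 68.04, 53.5 and 57.85 on the knockdown arrays, against 74.74, 65.82 and 75.82 on the control arrays, in intensity units before any correction. All 6 values lay below the thresholds of their arrays, which ran from 76.46 to 128.3, so these 2 genes were not measured.

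Ribosomes are built largely in the nucleolus. RNA polymerase I transcribes a long precursor RNA there, snoRNPs guide its methylation and pseudouridylation, and successive assembly factors cut and fold it into the precursors of the small and large subunits, which are finished in the cytoplasm. The demand for ribosomes rises with growth, and many of these genes are known targets of the transcription factor MYC. YAP1 and TAZ are transcriptional co-activators restrained by Hippo signalling that act mainly through TEAD factors.

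The siRNA targets fell. YAP1 was 5.33-fold lower (limma adjusted p = 2.15e-08), and WWTR1, which encodes TAZ, was at least 2.34-fold lower, since its probe was detected on none of the 3 knockdown arrays. Array medians before normalisation ran from 62.23 to 71.69 in knockdown and from 64.71 to 82.95 in control samples, and between 13620 and 16827 probes were detected per array. Across tested probes, arrays of one group correlated at r of 0.99 to 0.995 and arrays of different groups at 0.932 to 0.944. Of 8 hepatocyte markers with a probe, SERPINA1 was detected on all 6 arrays, ALB on 5 and AFP on 2, while TTR, APOA1, APOB, TF and FGB were detected on none. SERPINA1 rose 2.84-fold (adjusted p = 5.94e-07) and ALB fell with a log2 change of -0.48 (adjusted p = 0.00468). Of 4 leukocyte markers with a probe, PTPRC and CD3E were detected on no array. CD14 and CD68 were detected on all 6, CD14 rising with a log2 change of 1.69 (adjusted p = 3.97e-07). CD68 did not pass by its brightest probe (-0.047, adjusted p = 0.759). When the probes of each gene were averaged, both CD14 and CD68 rose past the threshold, with a median log2 change of 1.14. The part of these markers in the results on the factors was not tested. None of the 7 endothelial markers was detected on any array.

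The factors were lower after knockdown of YAP1 and TAZ. Of the 47 measured, 39 fell, 0 rose and 8 did not pass an adjusted p of 0.05 from limma with Benjamini-Hochberg adjustment over all tested probes. Among all 9718 measured genes, 27.5% fell and 27.4% rose. The median log2 change of the factors was -0.70, beside 0.0016 for all measured genes, and 46 of the 47 changes were negative. All knockdown arrays lay below all control arrays for 41 factors, as they did for 31.5% of all measured genes. The reverse held for 1 factor, IMP3, and for 30.9% of all genes. A fall of 2-fold or more was seen for 10 of the 47, as for 5.54% of all genes. Counted by probe, 57 of 67 fell and 0 rose, where 25.7% of all tested probes fell. Of the 47 factors, 44 were detected on all 6 arrays, and 36 of these fell.

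Sample by sample, the median factor stood at a normalised log2 intensity of 8.72, 8.72 and 8.67 on the knockdown arrays, against 9.56, 9.62 and 9.57 on the control arrays. The groups were thus apart by far more than the spread between their replicates. The same RNA mass was labelled per sample, and the arrays were brought to 1 common distribution, so each level is relative to the other transcripts of its sample. RNA came from whole cultures, in which less transcript per cell and fewer cells with the transcript cannot be told apart. The 10 proliferation markers, among them TOP2A, CCNA2 and PCNA, all fell as well, beside 27.5% of all measured genes. Their median log2 change was -2.14. Of the 10, 2 were detected on no knockdown array, so the sizes of those falls are uncertain. The 8 detected on all 6 arrays all fell, with a median of -2.14. The part of the proliferation markers in the fall of the factors was not tested.

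**Figure D1:**
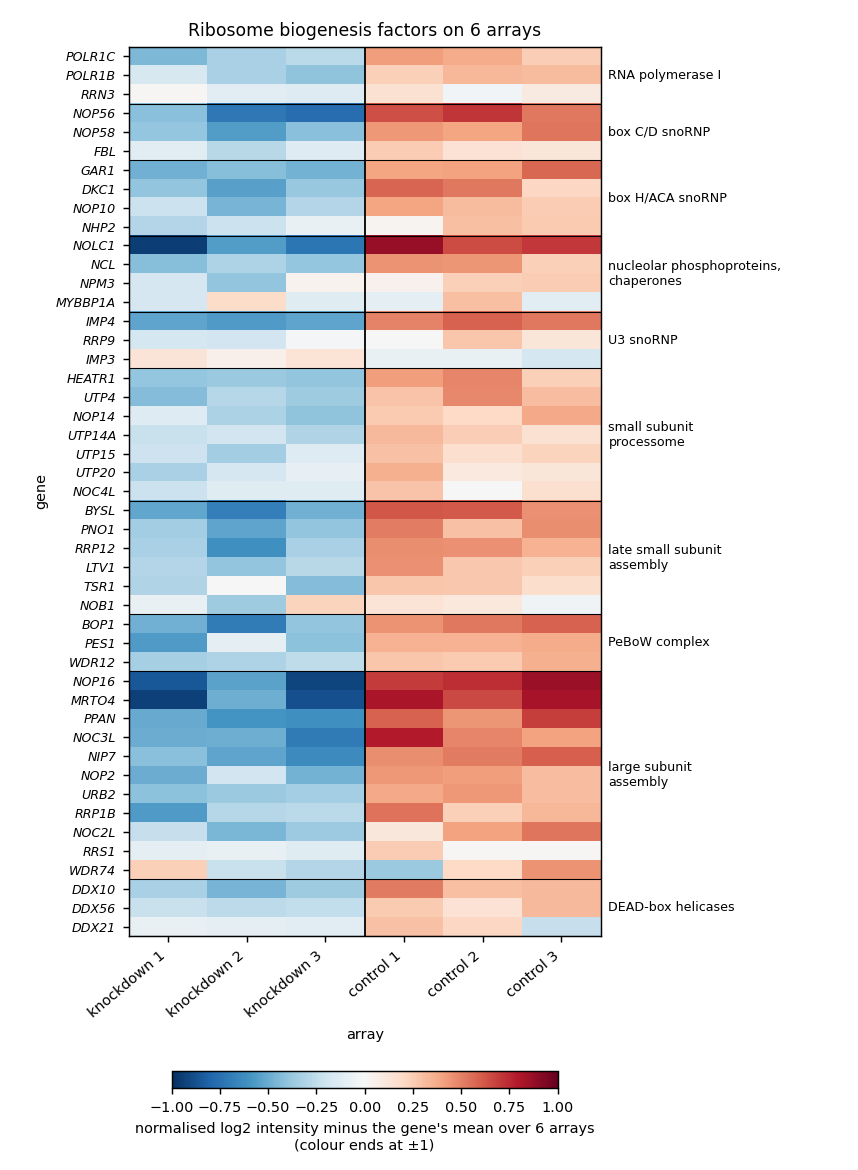
Each row is 1 of the 47 measured factors, grouped by role, and each column is 1 array, the 3 knockdown arrays left of the 3 control arrays. Colour gives the normalised log2 intensity minus the gene's mean over the 6 arrays, and most rows are blue in knockdown and red in control, with IMP3 the other way round.

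The stretch of DNA around the transcript start was inspected next, because a set that moves together can be read against the short sequence motifs its promoters share. RefSeq windows of 300 bases on GRCh38.p14, from 250 before to 50 after a transcript start, were on hand for 45 of the 53 factors, some with 2 starts, making 55 windows. The E-box CACGTG, a palindrome and the core site bound by MYC with its partner MAX and by related factors, was present in a window of 21 of the 45 factors (46.7%). It was present for 13.1% of the 7949 measured genes with a window and for 8.77% of all 27305 genes with one. For comparison, the TEAD core GGAATG, searched on both strands, was found for 9 factors (20%), 14.7% of measured genes and 16.7% of all genes. The E2F-type motif TTTCCCGC, also on both strands, was found for 1 factor (2.22%), 3.45% of measured genes and 1.98% of all genes. No E-box match of a factor overlapped a match to either of these motifs. A match is a string of letters and not a shown binding site.

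The windows of 5 factors are given with the E-box in capitals, to show where it lies in genes that fell strongly, in 1 that fell without it, and in 1 that has it and did not pass the test. All run 5′ to 3′ on the gene's own strand. MRTO4 lies at chr1:19251555-19251854 on the plus strand, BYSL at chr6:41921249-41921548 on the plus strand and NOC3L at chr10:94362890-94363189 on the minus strand. NOP16, with no E-box, lies at chr5:176388549-176388848 on the minus strand, and MYBBP1A at chr17:4555335-4555634 on the minus strand. The windows of BYSL and NOC3L also hold the TEAD core, which reads cattcc on the strand shown and is left in lower case.
MRTO4: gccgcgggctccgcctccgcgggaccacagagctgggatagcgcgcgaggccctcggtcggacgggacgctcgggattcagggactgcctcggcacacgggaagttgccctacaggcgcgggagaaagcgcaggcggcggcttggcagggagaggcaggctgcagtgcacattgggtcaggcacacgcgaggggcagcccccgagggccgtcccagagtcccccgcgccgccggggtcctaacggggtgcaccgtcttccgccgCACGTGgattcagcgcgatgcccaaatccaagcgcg
BYSL: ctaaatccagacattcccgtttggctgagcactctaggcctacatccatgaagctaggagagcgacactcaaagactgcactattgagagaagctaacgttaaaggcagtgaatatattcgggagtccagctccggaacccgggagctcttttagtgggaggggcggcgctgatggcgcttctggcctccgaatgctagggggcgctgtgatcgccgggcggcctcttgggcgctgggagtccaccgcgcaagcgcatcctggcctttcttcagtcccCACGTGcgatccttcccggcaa
NOC3L: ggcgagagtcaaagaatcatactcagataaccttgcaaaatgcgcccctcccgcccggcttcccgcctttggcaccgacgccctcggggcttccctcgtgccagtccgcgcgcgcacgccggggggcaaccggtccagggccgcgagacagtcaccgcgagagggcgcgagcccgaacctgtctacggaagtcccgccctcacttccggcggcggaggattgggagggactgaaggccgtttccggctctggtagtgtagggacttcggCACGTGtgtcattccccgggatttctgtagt
NOP16: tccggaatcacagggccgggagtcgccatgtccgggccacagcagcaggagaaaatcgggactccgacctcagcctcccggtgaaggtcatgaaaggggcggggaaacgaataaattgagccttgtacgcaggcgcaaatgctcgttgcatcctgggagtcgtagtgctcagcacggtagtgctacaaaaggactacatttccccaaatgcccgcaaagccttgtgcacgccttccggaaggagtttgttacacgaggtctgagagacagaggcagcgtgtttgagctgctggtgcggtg
MYBBP1A: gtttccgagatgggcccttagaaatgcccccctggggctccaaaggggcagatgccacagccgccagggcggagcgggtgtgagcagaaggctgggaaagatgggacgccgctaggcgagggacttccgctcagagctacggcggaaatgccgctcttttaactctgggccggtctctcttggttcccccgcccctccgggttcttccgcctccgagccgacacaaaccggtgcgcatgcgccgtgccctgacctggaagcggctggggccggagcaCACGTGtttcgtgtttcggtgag

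Counting the first base of the transcript as 1, the E-box begins at position 15 in MRTO4, 29 in BYSL, 20 in NOC3L and 28 in MYBBP1A. Of 24 matches in the factors' windows, counted once in each window, 20 lay between 100 bases before and 50 after the start, and the median position was 8.5. The falls of factors with and without the motif were set side by side. The 18 measured factors with an E-box had a median log2 change of -0.68, with 15 lower, and the 22 without one had -0.59, with 18 lower. Both groups spanned nearly the same range, from -1.53 to -0.067 with the motif and from -1.53 to 0.21 without it. Neither group holds the 7 measured factors without a window, of which 6 fell and RRS1 did not pass. The 6 were NOLC1 (log2 change -1.48), BOP1 (-1.05), NOP58 (-0.91), RRP12 (-0.85), URB2 (-0.75) and RRP1B (-0.75). Among factors with a window, the E-box was present for 15 of 33 lower ones and 3 of 7 that did not pass. The TEAD core was found for 8 of those 33 and 0 of those 7. These counts are small, and whether either motif has a part in the falls was not tested.

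**Figure D2:**
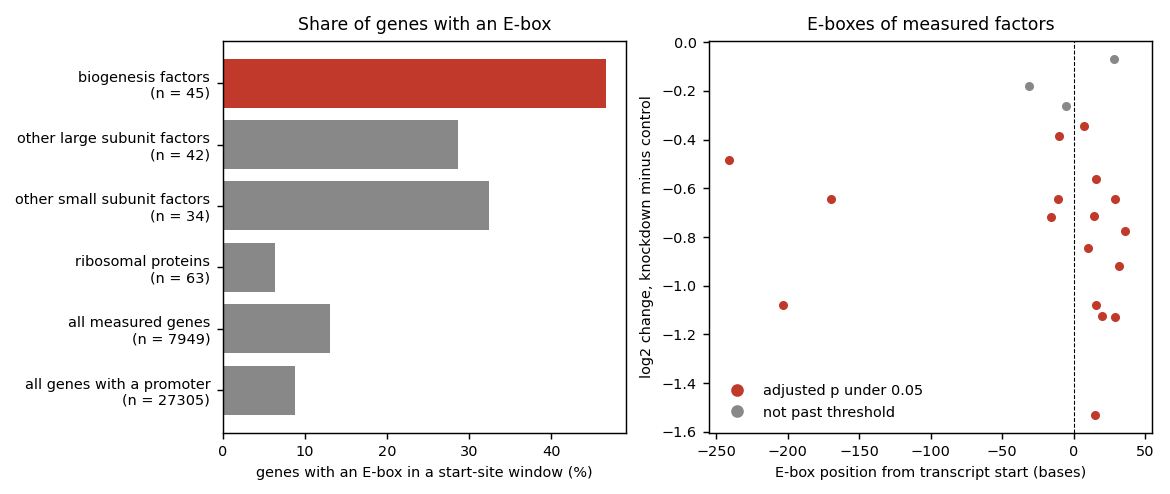
Left, the percentage of genes with an E-box in a window around the transcript start, with the number of genes that have a window as n: the factors stand at 46.7%, measured genes at 13.1% and ribosomal protein genes at 6.35%. Right, the position of each E-box of a measured factor from the transcript start, in bases, against the factor's log2 change, knockdown minus control; most points lie close to the start, and the large and small falls share these positions.

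RNA polymerase I starts the pathway. Of its 3 measured genes, POLR1C and POLR1B fell and RRN3 did not pass. POLR1C, a subunit shared with RNA polymerase III, read 9.24, 9.37 and 9.42 in knockdown against 10.11, 10.06 and 9.93 in control samples (normalised log2 intensity), a 1.61-fold fall (log2 change -0.69 ± 0.101 SE, adjusted p = 0.000177). POLR1B, the second largest subunit, read 6.63, 6.46 and 6.38 in knockdown against 7.03, 7.12 and 7.11 in control, or 1.51-fold lower (adjusted p = 0.000564). In both genes the groups were apart on every array, and the other probe of each also fell, with log2 changes of -0.53 for POLR1C and -0.58 for POLR1B. RRN3, the initiation factor that couples the polymerase to its promoter, had a log2 change of -0.14 ± 0.0998 SE (adjusted p = 0.253), and its groups overlapped. RRN3 has near-identical pseudogenes, and how far its probe reads them is unknown.

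The snoRNP core proteins fell in both classes, 3 of 3 of the box C/D class and 4 of 4 of the box H/ACA class. Box C/D snoRNPs carry out 2′-O-methylation of ribosomal RNA. NOP56, a scaffold of that particle, read 11.38, 11.07 and 11.03 in knockdown against 12.44, 12.51 and 12.32 in control samples. It fell 2.39-fold (log2 change -1.26 ± 0.117 SE, adjusted p = 5.89e-06), and its other 2 probes gave -1.46 and -1.23. NOP58, its partner scaffold, fell 1.88-fold, with readings of 10.75, 10.57 and 10.71 in knockdown and 11.57, 11.53 and 11.67 in control. FBL, the methyltransferase itself, moved least, with 10.70, 10.54 and 10.69 in knockdown against 11.07, 10.96 and 10.93 in control, 1.27-fold lower (adjusted p = 0.0129). Each of the 3 genes had its knockdown arrays wholly below its control arrays.

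Box H/ACA snoRNPs convert uridine to pseudouridine, and DKC1 is their catalytic subunit, mutated in dyskeratosis congenita. DKC1 read 10.80, 10.64 and 10.81 in knockdown against 11.77, 11.71 and 11.40 in control samples, a 1.84-fold fall (adjusted p = 0.000102). GAR1, another core protein, read 9.69, 9.74 and 9.69 in knockdown against 10.56, 10.57 and 10.75 in control, 1.89-fold lower (log2 change -0.92 ± 0.0981 SE), and all 4 of its probes fell, by log2 changes between -0.92 and -0.70. NOP10, the smallest core protein, stood at 12.55, 12.29 and 12.47 in knockdown against 13.15, 13.08 and 13.01 in control, 1.56-fold lower. NHP2, which binds the guide RNA, fell 1.31-fold, with log2 changes between -0.48 and -0.39 over its 4 probes.

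Among abundant nucleolar proteins, 3 of the 4 measured fell. NOLC1, a phosphoprotein chaperone of snoRNPs, read 7.47, 7.85 and 7.68 in knockdown against 9.28, 9.06 and 9.11 in control samples, 2.79-fold lower (log2 change -1.48 ± 0.119 SE, adjusted p = 2.01e-06). NCL, nucleolin, which binds nascent precursor RNA, read 11.31, 11.42 and 11.35 in knockdown against 12.18, 12.17 and 11.97 in control, 1.68-fold lower, with -0.77 for its other probe. NPM3, a relative of NPM1, was 1.28-fold lower at an adjusted p of 0.0339. MYBBP1A, a nucleolar repressor of transcription, had values of 6.87, 7.22 and 6.91 in knockdown and 6.94, 7.34 and 6.93 in control. Its log2 change was -0.067 (adjusted p = 0.712), and the E-box shown above begins at position 28 of its transcript.

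The U3 snoRNP, which starts the small subunit processome, held both a large fall and the sole positive change. IMP4 read 9.87, 9.84 and 9.87 in knockdown against 10.90, 10.99 and 10.93 in control samples, 2.11-fold lower (log2 change -1.08 ± 0.0926 SE, adjusted p = 3.32e-06). IMP3, which binds U3 RNA in the same particle, had a positive change, at 10.90, 10.82 and 10.90 in knockdown against 10.69, 10.69 and 10.59 in control. Its knockdown arrays lay wholly above its control arrays, but the log2 change of 0.21 ± 0.0946 SE did not pass (adjusted p = 0.0815) and was 0.0085 under median scaling. RRP9, the U3-specific WD repeat protein, was at -0.26 (adjusted p = 0.0639) and did not pass, although its groups did not overlap.

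Small subunit processome genes fell in 7 of 7 cases, each by less than 2-fold. HEATR1, needed for precursor transcription and early processing, read 8.94, 8.96 and 8.94 in knockdown against 9.74, 9.82 and 9.57 in control samples, 1.70-fold lower (adjusted p = 8.38e-05). UTP4, mutated in a childhood cirrhosis, fell 1.64-fold, and NOP14 1.48-fold, UTP14A 1.40-fold and UTP15 1.37-fold. UTP20 and NOC4L had the smallest falls, with log2 changes of -0.38 and -0.30, and UTP20 was dim, detected on 1 of 3 knockdown and 2 of 3 control arrays. Probes disagreed in size for NOP14, whose other probe gave -0.22, and for UTP14A, whose other probe gave -0.097, neither past the threshold. These were the 2 exceptions among 14 factors with several tested probes. In the other 12, every probe fell.

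Factors that finish the small subunit fell in 5 of 6 cases. BYSL, the human bystin, read 8.86, 8.70 and 8.90 in knockdown against 10.00, 9.99 and 9.84 in control samples, 2.18-fold lower (log2 change -1.13 ± 0.103 SE, adjusted p = 5.31e-06). PNO1 and RRP12 each fell 1.80-fold, LTV1, which helps place RPS3 on the head of the subunit in yeast, 1.56-fold, and TSR1, a GTPase-like factor, 1.40-fold. NOB1, the endonuclease that makes the final cut of 18S RNA, had values of 7.16, 6.88 and 7.46 in knockdown and 7.37, 7.34 and 7.20 in control. Those values overlapped (log2 change -0.14, adjusted p = 0.438), although PNO1, its partner at that cut, was apart on every array.

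**Figure D3:**
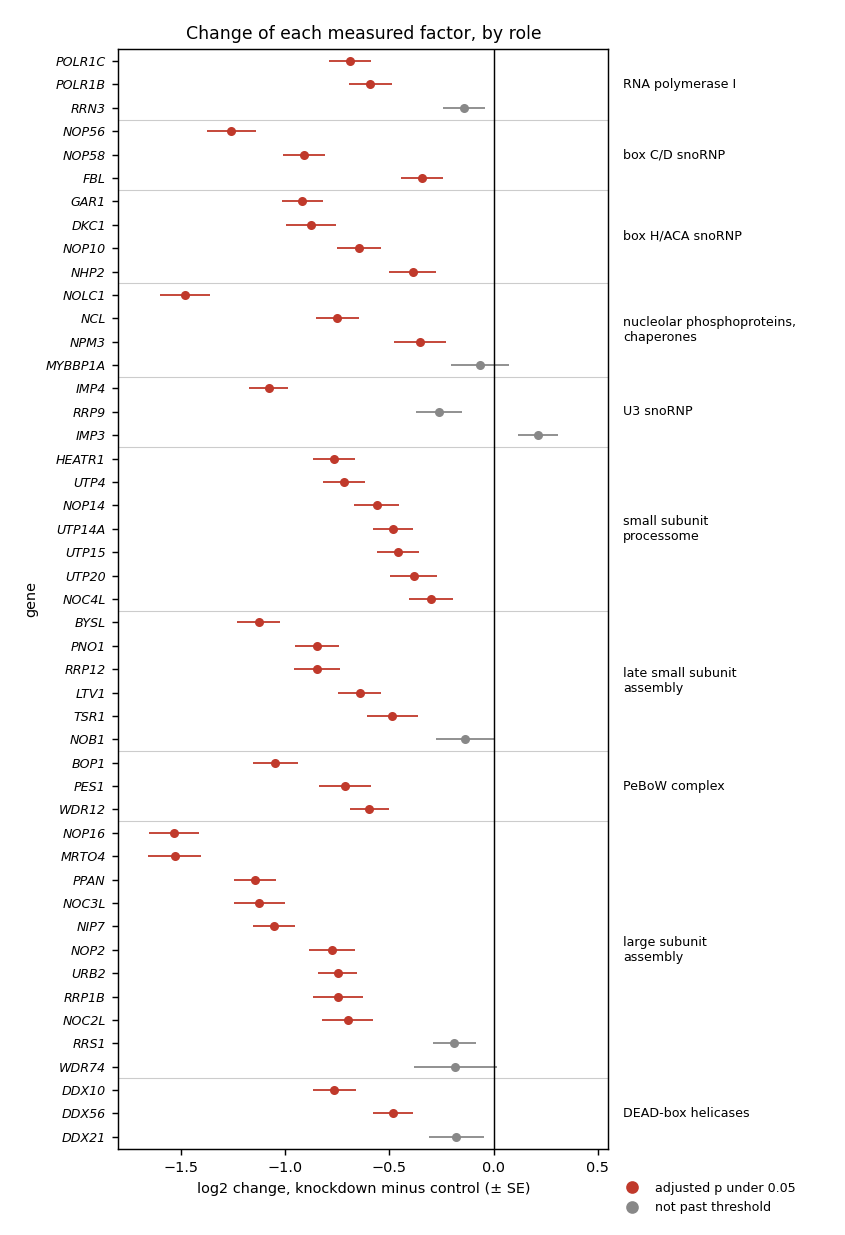
The log2 change of each measured factor, knockdown minus control, with its standard error, grouped by role and ordered within each role; red marks an adjusted p under 0.05. Points run from -1.53 in NOP16 to 0.21 in IMP3, and 39 of the 47 are red.

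Large subunit assembly held the largest falls, with 9 of 11 genes lower. NOP16 read 7.66, 7.97 and 7.58 in knockdown against 9.20, 9.24 and 9.36 in control samples, 2.89-fold lower (log2 change -1.53 ± 0.119 SE, adjusted p = 1.54e-06), and its other probe gave -1.30. MRTO4, which takes the place of the stalk protein P0 on the precursor particle, read 7.46, 7.90 and 7.51 in knockdown against 9.20, 9.04 and 9.21 in control, likewise 2.89-fold lower (adjusted p = 2.69e-06). Both genes were higher on knockdown array 2 than on the other 2 knockdown arrays and still more than 1 log2 unit below every control array. PPAN, the homologue of yeast Ssf1, fell 2.21-fold, with 6.36, 6.26 and 6.25 in knockdown against 7.45, 7.31 and 7.55 in control, and was detected on 2 of 3 knockdown arrays. NOC3L, a nucleolar complex protein, read 9.23, 9.24 and 9.02 in knockdown against 10.52, 10.22 and 10.13 in control, a 2.18-fold fall. NIP7, a small RNA-binding factor, stood at 8.68, 8.57 and 8.46 in knockdown against 9.56, 9.62 and 9.70 in control, 2.08-fold lower.

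Smaller falls in this group were those of NOP2, which methylates a cytosine of 28S RNA (1.71-fold), URB2 (1.68-fold), RRP1B (1.68-fold) and NOC2L (log2 change -0.70). RRS1, which recruits the 5S RNA particle in yeast, read 8.70, 8.72 and 8.67 in knockdown against 9.04, 8.80 and 8.80 in control samples and did not pass (log2 change -0.19 ± 0.103 SE, adjusted p = 0.151). Its highest control value was that of replicate 1, without which the change was -0.11, and under median scaling it was -0.37, neither past the threshold. WDR74 was the most variable factor, at 8.67, 8.20 and 8.14 in knockdown and 8.06, 8.62 and 8.88 in control, with overlapping groups (adjusted p = 0.467). Its log2 change of -0.18 ran from -0.41 without control replicate 1 to -0.0054 without control replicate 3. The PeBoW complex, needed to process the precursor of 28S and 5.8S RNA, fell in all 3 subunits. BOP1 read 9.60, 9.38 and 9.69 in knockdown against 10.53, 10.61 and 10.67 in control, 2.07-fold lower, while PES1 fell 1.64-fold and WDR12 1.51-fold.

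Of the DEAD-box RNA helicases, DDX10 fell 1.70-fold (log2 change -0.76 ± 0.103 SE, adjusted p = 9.81e-05) and DDX56 1.40-fold. DDX21, which links RNA polymerase I transcription and snoRNA release, read 11.13, 11.11 and 11.09 in knockdown against 11.49, 11.40 and 10.97 in control samples. Control array 3 lay below all 3 knockdown arrays, and the change did not pass (log2 change -0.18, adjusted p = 0.284). Without control replicate 3 it was -0.34 and did (adjusted p = 0.0239), while it was -0.078 without control replicate 1.

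**Figure D4:**
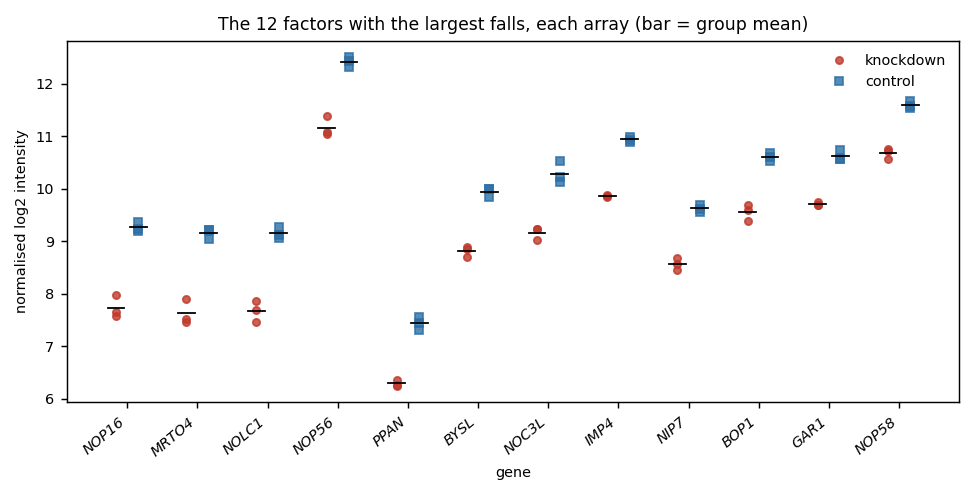
Normalised log2 intensity on each array for the 12 factors with the largest falls, knockdown circles left of control squares, with a bar at each group mean of 3 arrays. No knockdown value reaches a control value of the same gene, from NOP16 (2.89-fold) to NOP58 (1.88-fold).

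Of the 39 calls, 34 held under every alternative that measured the gene, and those of FBL, NHP2, NPM3, UTP20 and NOC4L did not. FBL lost its call without control replicate 1 (log2 change -0.30, adjusted p = 0.0504) and NHP2 without control replicate 2 (-0.34, 0.0541). NPM3 lost it without knockdown replicate 1 (-0.36, adjusted p = 0.0655) or 2 (-0.24, 0.111) and without control replicate 2 (-0.32, 0.105) or 3 (-0.32, 0.0983). UTP20 lost it without knockdown replicate 1 (-0.32, adjusted p = 0.0552) or control replicate 1 (-0.30, 0.059). NOC4L lost it without knockdown replicate 1 (-0.27, adjusted p = 0.0957) or 3 (-0.32, 0.0651) and without control replicate 1 (-0.23, 0.124) or 3 (-0.29, 0.071). RRP9 passed without control replicate 1 (-0.33, adjusted p = 0.0435).

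Other genes of the pathway were read from lists of factors outside the 53. Of 37 other measured small subunit factors, 27 fell (73%, beside 27.5% of all measured genes) and 1 rose, with a median log2 change of -0.48. NAT10, which acetylates cytidines of 18S RNA, fell 2.44-fold (log2 change -1.29 ± 0.108 SE, adjusted p = 2.78e-06), and RCL1 fell with a log2 change of -0.90. RIOK3, a kinase of the cytoplasmic small subunit precursor, rose 1.26-fold. Of 42 other large subunit factors, 31 fell (73.8%) and 2 rose, with a median of -0.57. LYAR, a nucleolar zinc finger protein, fell 2.95-fold, GTPBP4, a GTPase of the large subunit precursor, 2.37-fold and BRIX1 2.28-fold, while NOP53 rose 1.59-fold (adjusted p = 0.000224) and RBM34 1.20-fold. The rising count among small subunit factors was 0 under median scaling, without the detection filter, and without knockdown replicate 1 or control replicate 1, and 2 on averaging probes. Among large subunit factors 1 gene rose under median scaling, without the detection filter, with the replicate block, and without any 1 array other than knockdown replicate 2.

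Polymerase and RNA processing genes were counted in the same way. Of 10 further RNA polymerase I genes, 3 fell (30%, beside 27.5% of all measured genes) and 1 rose, with a median log2 change of -0.11. That median was -0.26 under median scaling and -0.048 on averaging probes or without control replicate 2. POLR1E, a subunit, fell 2.13-fold, POLR1F 1.82-fold and TTF1, the termination factor, 1.22-fold, while TAF1D, part of the promoter selectivity factor, rose 1.31-fold. The rise count was 0 under median scaling and without the detection filter. Genes of the RNA exosome and RNase MRP, which trim and cut the precursor, fell in 13 of 21 cases (61.9%) and rose in 2. EXOSC9 was 3.01-fold and EXOSC2 2.41-fold lower. The 2 rises were 0 under median scaling or without the detection filter, and 1 on leaving out any knockdown replicate or control replicate 2 or 3. RNA polymerase II subunits fell in 6 of 11 cases (54.5%) and rose in 0, with a median of -0.37. RNA polymerase III subunits fell in 7 of 10 (70%) and rose in 1, with a median of -0.40. Among all measured genes, 27.5% fell and 27.4% rose. The polymerase II falls were 5 of 11 under median scaling and 4 of 12 without the detection filter. Those of polymerase III were 5 of 10 under both settings and 8 of 10 on averaging probes. The paralogous polymerase III subunits POLR3G and POLR3GL moved in opposite directions, with log2 changes of -0.65 ± 0.116 SE and 0.71 ± 0.105 SE (adjusted p = 0.000671 and 0.000188).

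The ribosomal proteins themselves were also read. Of 68 measured genes of cytosolic ribosomal proteins, 4 fell (5.88%), 6 rose (8.82%) and 58 did not pass, with a median log2 change of 0.031. Among all measured genes the shares were 27.5% and 27.4%. RPL36A fell 1.84-fold, RPL29 1.66-fold and RPS7 1.42-fold, while RPL22 rose 1.74-fold, RPL28 1.42-fold and RPL13A 1.32-fold. The count of rising genes was 1 under median scaling of the arrays, 3 without the detection filter and 10 when the probes of a gene were averaged. Their median was 0.16 under median scaling, where all genes had -0.107, 0.051 on averaging probes, 0.048 without knockdown replicate 2 and 0.017 without control replicate 3. The median ribosomal protein probe stood at 13.62 in knockdown and 13.59 in control samples, beside 14.54 in both groups for the brightest tested probe. The probes ran down to a control mean of 6.96 in RPL28, and all 10 called genes lay below the median of the list. Many ribosomal protein genes have processed pseudogenes that a probe may also read. An E-box was present for 4 of 63 of these genes with a window (6.35%), beside 12 of 42 other large subunit factors (28.6%) and 11 of 34 other small subunit factors (32.4%). It was present for 3 of 7 RNA polymerase III genes (42.9%), 1 of 10 other RNA polymerase I genes, 2 of 20 exosome and RNase MRP genes, and 0 of 8 RNA polymerase II genes.

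**Figure D5:**
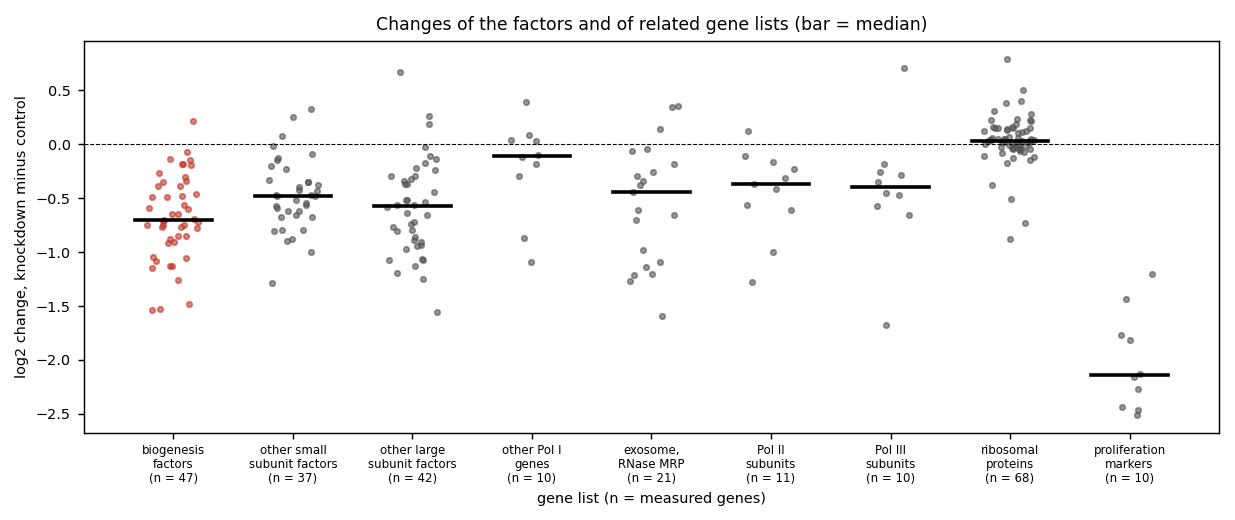
Each point is the log2 change of 1 measured gene, knockdown minus control, and each bar the median of its list. The factors have a median of -0.70 and the other small and large subunit factors of -0.48 and -0.57, while ribosomal protein genes centre on 0.031 and proliferation markers on -2.14.

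MYC, the factor best known for driving ribosome biogenesis genes through E-boxes, was itself lower. It read 9.70, 9.62 and 9.57 in knockdown against 10.78, 10.85 and 10.85 in control samples, 2.30-fold lower (log2 change -1.20 ± 0.0945 SE, adjusted p = 1.71e-06). MAX, its partner, had a log2 change of -0.13 and did not pass (adjusted p = 0.307). Of 8 measured genes of the MYC network, 2 fell and 2 rose, 25% each way, beside 27.5% and 27.4% of all measured genes. The falling count was 4 of 8 on averaging probes and 3 of 8 without knockdown replicate 1. It was 2 of 6 among genes detected on all 6 arrays. Of the MAX-binding proteins that oppose MYC, MXD4 rose 4.02-fold and MNT 1.51-fold, while MXD3 fell (adjusted p = 0.0001) and was detected on none of the knockdown arrays. MXD1 had a log2 change of 0.15 and MGA of -0.29, and neither passed in the reported setting (adjusted p = 0.299 and 0.0518). Whether the level of MYC has a part in the fall of the factors was not tested.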

How the data were processed

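Per the labels' protocols, total RNA was amplified into biotin-labelled cRNA. The submitters' processing notes name BeadStudio without a version. Linear bead intensity values, 1 for each probe on each array, were deposited without control probes or detection p-values. The authors' processed values, used as an alternative, were deposited on a log2 scale, 99.9% of which differed by under 0.1 from raw intensities that had been logged and quantile normalised here.

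In R 4.3.3 with limma 3.58.1, the intensities were background-corrected with normexp on each array's own probes (offset 16), quantile normalised and put on the log2 scale. The background of an array was the mode of its log2 density (bandwidth 0.05), and mirroring the lower side of that peak gave the detection threshold at a p of 0.05. Probes detected on at least 3 arrays (15899 of 47231) were tested with lmFit and eBayes, knockdown minus control, two-sided and with no covariate, and adjusted over all of them. Of all probes, 30113 had 1 gene symbol in the platform annotation, 8 had several and 17110 were unnamed here, and 30074 were updated through Entrez identifiers. Replicate numbers were not used as pairs. The number of arrays limits precision. Alternatives changed the offset, background correction, scaling, detection filter, choice of probe, replicate block and each array in turn, or used the authors' values.

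The members, lists and tests were chosen with earlier results of these data known. Every factor could be named. Values on each array are given for the 12 largest falls and up to 3 members of a role, and for other lists up to 3 genes past the threshold in each direction, with MYC in any case. MAX was named after its value was seen. MXD1, MGA and the marker CD68, which did not pass in the reported setting, were also named outside this rule.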

Additional observations from a re-analysis of the deposited data

How the results depend on the processing

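The count of falling factors, 39, ran from 34 of 49 without the detection filter to 40 of 47 on averaging each gene's probes, and no factor rose under any of the 14 alternatives. Their median log2 change, -0.70, was -0.63 with a normexp offset of 50, -0.66 with no background correction, -0.65 with the authors' values, and -0.85 under median scaling. Median scaling also moved the median of all genes to -0.107, so the factors lay 0.74 below it, and left 1438 rising genes where the reported setting had 2658, so that rises were 36.7% of all calls and not 49.9%. The cause of these shifts was not tested. Leaving out 1 array gave medians from -0.71 to -0.66 and 36 to 38 falling factors. MYBBP1A and NOB1, which had not passed, turned positive and still did not pass, MYBBP1A at 0.067 without control replicate 2 (range over left-out arrays -0.18 to 0.067) and NOB1 at 0.0066 without knockdown replicate 2 (-0.28 to 0.0066). The labels do not say that replicate numbers mark a shared day or culture, so the numbers were not taken as pairs. Same-numbered arrays deviated from their group means with correlations of -0.177, -0.133 and -0.0149. With the replicate block 38 factors fell and NOC4L lost its call (adjusted p = 0.0596), and it changed no other call of a factor. UTP20 and NOC4L lost theirs under median scaling (adjusted p = 0.098 and 0.0788), and FBL, NHP2, NPM3, UTP20 and NOC4L without the detection filter (adjusted p = 0.0987, 0.0807, 0.149, 0.0854 and 0.173), where far more probes were tested. RRP9 passed on averaging probes (adjusted p = 0.0463). Dim probes limit POLR1A, NPM1 and UTP20.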
